A study of Mus musculus with 16 samples.

Results

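The data described here are the response of control mouse mast cells to IgE and antigen at 2 h. They come from 8 of the series' 16 arrays, 4 arrays of resting cells and 4 of activated cells. Members were chosen from the labels alone: the Cy3 channel of every array labelled 2 h. The cells were mast cells differentiated in vitro from mouse bone marrow, cultured for more than 4 weeks with 10% serum, interleukin 3 (5 ng/ml) and stem cell factor (40 ng/ml). Strain, sex and age of the animals are not given in the sources used here. Both groups received control goat IgG (15 ug/ml), so it is common to both. Resting cells received the IgG only. Activated cells were first loaded with IgE against dinitrophenyl (5 ug/ml) for 1 h, then given the antigen DNP-HSA (100 ng/ml) with the IgG, and RNA was taken at 2 h. The comparison therefore covers IgE loading and antigen together. The Cy5 channel of each array carried cells given an agonist antibody to TIM-3 in place of the IgG, and was used only to normalize. Control cells at 16 h, another 8 arrays with the same agents, serve for the comparison of times.

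Mast cells carry IgE on Fc-epsilon-RI, a high-affinity receptor made of an alpha chain that binds IgE, a beta chain and a pair of gamma chains. Antigen that crosslinks the bound IgE sets off the Src-family kinases Lyn and Fyn, then Syk, phospholipase C-gamma, calcium entry and the MAP kinases. Granules with histamine and proteases are released at once, lipid mediators follow, and new transcription through NFAT, AP-1, NF-kappaB and Egr factors gives cytokines and chemokines. The cells depend on the stem cell factor receptor Kit and on interleukin 3 for survival and growth.

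All values are log2 normalized Cy3 intensities, and a difference is activated minus resting on that scale, with its standard error (SE). Arrays of one group correlated at 0.992 to 0.9981 and arrays of different groups at 0.9796 to 0.986. The share of spots well above background lay between 53.7% and 62.1%, and 0 were saturated. Only 4 arrays per group limit the precision. Brightness depends on the probe, so levels are compared between groups and not between genes. The labels do not say that replicates were separate cultures, so p-values measure only the spread of these arrays, possibly a technical one. In such bulk RNA, fewer cells of a type and less RNA per cell cannot be told apart.

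Of 15788 genes tested, 7309 changed at an adjusted p under 0.05 (46.3%), 2623 upward (16.6%) and 4686 downward (29.7%). Most changes were small, with a median size of 0.37 on the log2 scale. Larger changes ran mainly upward: 371 genes rose at least 2-fold (2.35%) and 168 fell at least 2-fold (1.06%), while 63 rose and 3 fell at least 4-fold. Counted over all genes tested, called or not, every activated value lay above every resting one for 2327 (14.7%). Every activated value lay below for 4126 (26.1%). The median gene stood at -0.05. The excess of small falls depended on the scaling. With arrays centred on their median and no loess or quantile step, 1813 genes changed, and 63.4% of them were higher against 35.9% in the values used here. The number of rises of at least 2-fold was 406 under that scaling and the number of such falls 79, while Agilent's processed signal gave 656 and 471. Genes below that lose their call under median centring are named as such. Counts of list members are to be read against the shares of all genes that rose (16.6%) or fell (29.7%), and a list near these shares is no result about its members. Each gene stands by its brightest probe. Of the 74 genes named here that had a further kept probe, 17 had one whose difference was over 1 away from that of the brightest, and 4 had one of the other sign. Among the 64 called by the brightest probe, 8 had a further probe that did not change in that direction. Of the 4 slides, 2 held arrays of both groups, each with 2 activated and 1 resting array. On each of them all 371 large rises were above 0 and all 168 large falls below 0. The same arrays chose these genes, so their direction was nearly fixed and the counts are descriptions. With slide as a block 7596 genes changed.

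**Figure D1:**
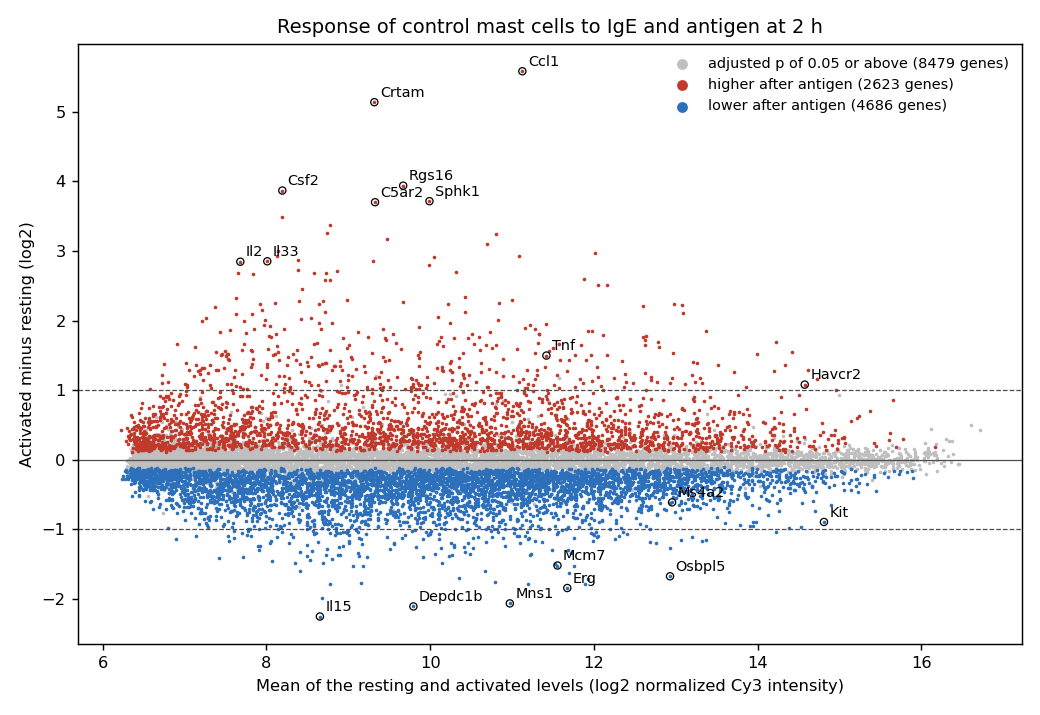
Each point is one of the 15788 genes tested. The horizontal axis is the mean of the resting and activated levels and the vertical axis the difference, activated minus resting, both from log2 normalized Cy3 intensities of 4 arrays per group. Red and blue points passed an adjusted p of 0.05, and dashed lines mark 2-fold changes. The largest rises reach 5.59 (Ccl1), while the largest fall stops at -2.26 (Il15).

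The starts of 4 of the most strongly raised genes are shown because they code for secreted or surface products of the response and are held in the RefSeq table (GRCm38.p6). Each window runs from 250 bases before the start of transcription to 50 after it, on the gene's own strand. Capitals mark every match, on either strand and with overlaps allowed, to the motifs searched: CRE (TGACGTCA), AP-1 (TGANTCA), NF-kappaB (GGG and CC around a fixed gap), the NFAT core (GGAAA), EGR (GCGNGGGCG), the ETS core (CCGGAA), the TATA box (TATAAA) and the serum response element.
Ccl1 (chr11:82179763-82180062, minus strand): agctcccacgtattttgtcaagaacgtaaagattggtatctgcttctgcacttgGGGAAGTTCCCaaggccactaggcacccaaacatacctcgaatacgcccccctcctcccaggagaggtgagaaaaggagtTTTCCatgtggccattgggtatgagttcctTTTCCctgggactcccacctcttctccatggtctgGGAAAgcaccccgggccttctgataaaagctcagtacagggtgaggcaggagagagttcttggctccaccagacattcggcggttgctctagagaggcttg
Csf2 (chr11:54249850-54250149, minus strand): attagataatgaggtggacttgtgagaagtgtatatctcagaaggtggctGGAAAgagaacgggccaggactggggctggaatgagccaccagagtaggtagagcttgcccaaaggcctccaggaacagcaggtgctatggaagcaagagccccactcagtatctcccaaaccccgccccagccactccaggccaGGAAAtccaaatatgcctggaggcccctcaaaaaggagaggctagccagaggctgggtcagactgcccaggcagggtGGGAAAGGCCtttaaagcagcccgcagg
Il2 (chr3:37125905-37126204, minus strand): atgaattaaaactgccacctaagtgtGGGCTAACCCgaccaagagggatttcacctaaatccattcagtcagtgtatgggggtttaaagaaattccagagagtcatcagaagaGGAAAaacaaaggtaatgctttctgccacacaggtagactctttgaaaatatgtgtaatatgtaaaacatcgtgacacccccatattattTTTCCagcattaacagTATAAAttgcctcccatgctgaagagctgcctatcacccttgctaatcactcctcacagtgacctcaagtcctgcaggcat
Olr1 (chr6:129507116-129507415, minus strand): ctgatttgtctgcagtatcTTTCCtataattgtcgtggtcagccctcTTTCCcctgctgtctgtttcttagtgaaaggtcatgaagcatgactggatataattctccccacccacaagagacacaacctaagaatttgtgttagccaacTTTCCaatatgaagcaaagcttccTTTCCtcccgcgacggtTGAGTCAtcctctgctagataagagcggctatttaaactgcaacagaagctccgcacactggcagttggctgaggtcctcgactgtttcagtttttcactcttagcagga
The Ccl1 window holds overlapping NF-kappaB matches on both strands at -196 and -195, and NFAT cores at -116, -86 and -51, counted from the start of transcription. Il2 has NFAT cores at -137 and -47 and a TATA box at -31. Olr1 has an AP-1 match at -60, and Csf2 has NFAT cores at -200 and -55. Such short motifs are common: an NFAT core lay in 58.9% of the 10569 tested genes with a window and in 63.1% of the 271 such genes among the large rises. The NF-kappaB pattern lay in 65.8% of all, 74.9% of the rises and 68.0% of the 122 large falls with a window. An EGR match was found in 10.2% of all, 15.9% of the rises and 9.02% of the falls. TATA boxes lay in 8.25%, 11.8% and 4.1%, respectively, and AP-1 matches in 5.36%, 6.64% and 4.1%. The ETS core lay in 26.9% of all tested genes with a window, 14.0% of the rises and 22.1% of the falls, so both sets were below all tested genes. The CRE, at 3.1% of all, was in 1.48% of the rises, and the serum response element in 1.34% and 0.369%. These are counts of letters with no test. Over all 27025 windows of the table, the NFAT core lay in 61.3%, the NF-kappaB pattern in 50.4%, TATA in 14.2%, AP-1 in 7.93%, EGR in 5.55% and the ETS core in 15.2%.

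The chemokine Ccl1, which attracts CCR8-bearing T cells, led the 12 largest rises measured in both groups. Its resting arrays, replicates 1 to 4 in this order here and below, read 8.26, 8.34, 8.18 and 8.54, and its activated arrays 13.62, 14.17, 14.06 and 13.83. The groups lay far apart, with a difference of 5.59 ± 0.10 (SE, n = 4 and 4; 48-fold, adjusted p = 2.19e-15). Crtam, a surface receptor of activated lymphocytes that binds nectin-like proteins, read 6.71, 6.73, 6.67 and 6.88 at rest and 11.71, 12.14, 11.91 and 11.79 after antigen. All activated values again lay above all resting ones, by 5.14 ± 0.08 (35.3-fold, adjusted p = 6.96e-16). Rgs16, which speeds the turn-off of G proteins, went from 7.39, 7.44, 7.83 and 8.14 to 11.39, 11.68, 11.80 and 11.70. That is a rise of 3.94 ± 0.13 (15.3-fold), with resting replicate 4 the highest of its group. Sphk1, which makes sphingosine 1-phosphate, read 8.13, 7.84, 8.13 and 8.44 at rest and 11.84, 11.73, 11.94 and 11.89 after antigen, 3.72 ± 0.27 higher (13.1-fold), and by 1.99 on a further probe. C5ar2, a decoy-like receptor for the complement fragment C5a, read 7.25, 7.53, 7.61 and 7.51 and then 11.15, 11.16, 11.20 and 11.20, a rise of 3.70 (13-fold) with activated arrays within 0.05 of each other.

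Other genes among the 12 largest rises have varied roles. The scavenger receptor Olr1 rose by 3.49 (11.2-fold), from 6.43, 6.30, 6.46 and 6.63 to 9.95, 10.09, 9.86 and 9.86. Follistatin, Fst, which binds and blocks activin, rose by 3.37 (10.3-fold), and Gpd1, a glycerol phosphate dehydrogenase, by 3.25 (9.53-fold), but by 0.36 on a further Gpd1 probe with no resting array well above background. Ptpn22, a phosphatase that restrains Src-family and Syk-family kinases in lymphocytes, read 9.04, 9.19, 9.22 and 9.27 at rest and 12.46, 12.48, 12.49 and 12.26 after antigen, a 9.47-fold rise. The membrane semaphorin Sema7a rose 9-fold and the MARCKS-like actin regulator Marcksl1 8.55-fold. Resting Marcksl1 was uneven, at 9.76, 8.44, 8.85 and 9.53, against 12.18, 12.22, 12.47 and 12.11 after antigen. Mgat3, a glycosyltransferase that adds bisecting N-glycan branches, rose 8.01-fold; its resting arrays read 6.41, 6.42, 6.49 and 7.21, so replicate 4 stood apart, and 3 of 4 were well above background. Each of these 12 genes passed with an adjusted p of 7.56e-07 or less and without overlap between groups.

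Genes with no resting signal above background give only a lower bound. Csf2, the gene of GM-CSF, read 6.27, 6.28, 6.21 and 6.28 on the resting arrays, none of them well above background, and 10.08, 10.40, 9.95 and 10.08 after antigen. It was at least 14.5-fold higher (adjusted p = 1.07e-14), where the resting side is, array by array, the dimmest well-measured probe or, if brighter, the gene itself. Next came the potassium channel gene Kcnj12 (at least 3.86-fold), the retinoic acid binding protein gene Crabp2 (2.95-fold), the nuclear receptor Nr4a3 (2.39-fold) and the retinaldehyde dehydrogenase Aldh1a3 (2.16-fold). For Rhpn2 and the small GTPase gene Gem the bounds were 2.12-fold and 1.89-fold. For Il2, the T cell growth factor, probes differed and no bound is given. Its brightest probe, not well above background on any resting array, read 6.21, 6.25, 6.28 and 6.29 at rest and 8.95, 9.26, 9.12 and 9.09 after antigen. A further Il2 probe, well above background on all 8 arrays, rose by 0.73 (adjusted p = 4.77e-08). Bounds in the other direction were small. Nxpe2 fell at least 1.96-fold and Edar at least 1.6-fold, though the resting arrays of Edar spread from 6.41 to 7.71. The DNA replication checkpoint gene Clspn and the mitotic kinase gene Ttk fell at least 1.33-fold each, and Nxpe5, Itgb6, Ldhc and Phlda2 between 1.31-fold and 1.43-fold.

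Of 28 cytokine genes listed, 21 passed the filter, and 17 rose and 3 fell (14 and 2 under median centring). By their brightest probe, 7 passed through the activated arrays only and so had to be higher there. Among the 14 measured in both groups, 10 rose and 3 fell, with a median of 0.60 beside -0.05 for all genes. The alarmin Il33, which acts back on mast cells through the receptor ST2, read 6.56, 6.46, 6.68 and 6.64 at rest and 9.49, 9.42, 9.41 and 9.42 after antigen. Its values did not overlap, and it rose by 2.85 ± 0.06 (7.22-fold, adjusted p = 1.1e-14). Il3, a growth factor of the same cells, rose by 2.03, from 6.17, 6.41, 6.30 and 6.10 to 8.26, 8.22, 8.35 and 8.27, with 1 of 4 resting arrays well above background. Among the type 2 cytokines, Il13 went from 6.68, 6.78, 6.75 and 6.70 to 8.68, 8.87, 8.62 and 8.69, a 3.97-fold rise, and Il4 from 10.09, 10.53, 10.13 and 10.33 to 11.91, 11.90, 11.78 and 11.84, a 3.01-fold rise. Il5, above background on 0 resting and 3 activated arrays, was at least 1.39-fold higher. Il1b, the fever cytokine, was already well above background at rest, at 11.41, 10.87, 10.68 and 11.14, and reached 13.09, 12.51, 12.30 and 12.77 (3.13-fold higher). Il6 differed little among the inflammatory cytokines. It read 13.22, 13.48, 13.37 and 13.47 at rest and 13.69, 13.74, 13.66 and 13.48 after antigen, a difference of 0.25 ± 0.07 (adjusted p = 0.00968) that did not pass under median centring (adjusted p = 0.199). The 3 cytokines that fell were Il15, Il16 and Osm. Il15, a survival factor for natural killer and memory T cells, led the 12 largest falls measured in both groups, from 9.84, 9.72, 9.97 and 9.60 to 7.61, 7.47, 7.44 and 7.57. Its groups did not overlap and the difference was -2.26 ± 0.07 (4.78-fold lower, adjusted p = 9.59e-13; -1.04 on a further probe). Il16, a ligand of CD4, fell 2.18-fold and oncostatin M, Osm, 1.42-fold, the latter not under median centring (adjusted p = 0.293).

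Of 18 chemokine genes tested (24 listed), 11 rose and 1 fell (10 and 0 under median centring), and 3 had passed through the activated arrays only. Among the 15 measured in both groups, 10 rose and 1 fell, with a median of 1.08. After Ccl1, the monocyte attractant Ccl7 rose most, from 11.05, 10.87, 10.77 and 10.97 to 13.34, 13.51, 13.57 and 13.26 (5.67-fold, adjusted p = 1.02e-09). Ccl4, an attractant of monocytes and T cells, went from 12.12, 11.12, 11.38 and 11.35 to 13.80, 13.65, 13.79 and 13.57 (4.63-fold), with resting replicate 1 the highest of its group. The lymphocyte attractant Xcl1 rose by 2.20, with 1 of 4 resting arrays above background. Cxcl3 and Cxcl2, neutrophil attractants acting on CXCR2, rose 3.67-fold and 2.99-fold. Cxcl3 read 9.30, 7.38, 8.04 and 9.22 at rest and 10.93, 9.19, 10.15 and 11.18 after antigen, so its groups overlapped. Cxcl2 read 7.67, 6.43, 6.77 and 7.22 at rest and 9.05, 8.27, 8.37 and 8.72 after antigen, and replicate 1 was the highest in both groups. The eosinophil attractant Ccl24 rose 3.55-fold. Ccl2, the main monocyte attractant, was the one chemokine that fell. It stood at 15.39, 15.29, 15.47 and 15.41 at rest and 15.11, 14.99, 15.10 and 14.87 after antigen, a difference of -0.37 ± 0.06 (adjusted p = 0.000154; 0.798 under median centring). Cxcl10, an interferon-induced attractant of T cells, differed by 0.95 without passing (adjusted p = 0.194). Its level varied with the replicate number, at 11.01, 8.59, 9.29 and 9.94 at rest and 12.04, 9.73, 10.19 and 10.64 after antigen. Each activated array was higher than the resting array of the same number, and with the replicate number as a block the adjusted p was 8.62e-06.

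**Figure D2:**
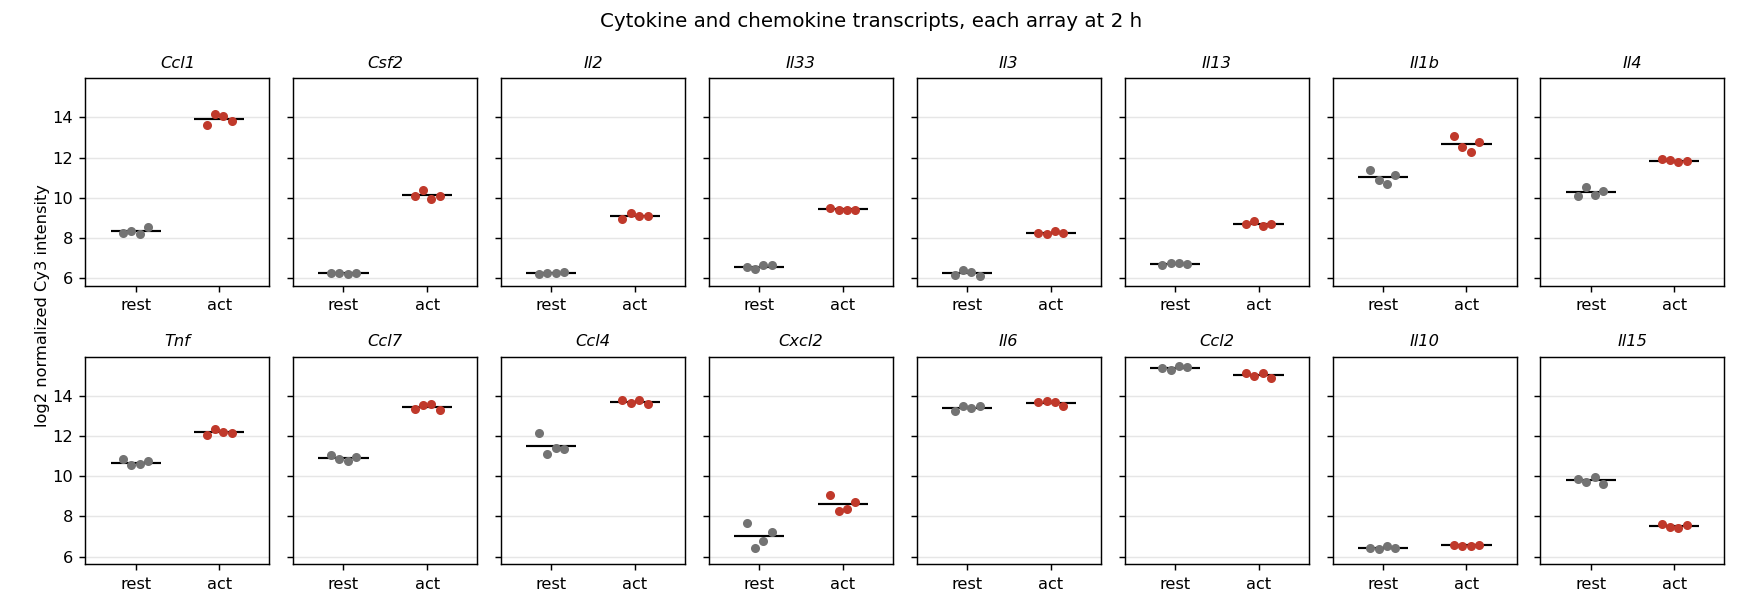
Each panel is one gene and each point one array at 2 h, with log2 normalized Cy3 intensity on the shared vertical axis and resting (rest) and activated (act) cells side by side. Bars are means of 4 arrays. Ccl1, Csf2, Il2 and Il33 separate most widely, Il6 and Ccl2 differ by less than 0.5, and Il15 is lower on every activated array.

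Among ligands of the TNF superfamily, 7 of 11 tested rose and 1 fell (5 and 0 under median centring). Of the 10 measured in both groups, 7 rose and 1 fell (median 0.64). Tnf itself, a hallmark mast cell cytokine, read 10.84, 10.54, 10.58 and 10.73 at rest and 12.02, 12.34, 12.17 and 12.15 after antigen, 2.82-fold higher (difference 1.50 ± 0.07, adjusted p = 1.08e-10). Tnfsf4, the ligand of the T cell receptor OX40, rose 3.17-fold, Tnfsf14 (LIGHT) 2.91-fold, the death ligand Tnfsf10 (TRAIL) 2.7-fold and lymphotoxin beta, Ltb, 1.91-fold. Tnfsf9, the 4-1BB ligand, fell by 0.27 (adjusted p = 7.26e-05), a call lost under median centring (adjusted p = 0.526). Of 12 EGF-receptor ligands and vascular factors tested, 7 rose and 2 fell (6 and 0 under median centring), 6 and 2 of them among the 10 measured in both groups. Hbegf, which binds the EGF receptor, rose 4.69-fold, from 7.48, 7.44, 7.70 and 7.48 to 9.96, 9.77, 9.62 and 9.67. The vascular factor Vegfa rose 2.55-fold and Pdgfa 2.22-fold. Amphiregulin, Areg, was above background only after antigen and was at least 1.87-fold higher.

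The Egr, Nab and Nr4a genes had a median difference of 1.38. All 9 tested changed, 8 upward and 1 downward (7 and 0 under median centring), with 2 tested through the activated arrays only. Egr factors are zinc finger activators switched on within minutes of a stimulus, and Nab proteins bind and restrain them. Egr3 went from 7.46, 7.50, 7.30 and 7.75 to 10.27, 10.27, 10.29 and 10.05 (6.58-fold, adjusted p = 4.27e-11; 0.47 on a further probe above background on 1 resting array) and Egr2 from 10.84, 10.41, 10.83 and 11.09 to 13.41, 13.13, 13.23 and 13.42 (5.67-fold). Their corepressor gene Nab2 rose 3.68-fold. The orphan nuclear receptor Nr4a1 rose 3.48-fold and Nr4a2 2.24-fold. Egr1 moved against its family. It read 12.79, 12.98, 12.17 and 12.50 on the resting arrays and 11.78, 11.69, 11.12 and 11.43 on the activated ones, 2.15-fold lower without overlap (adjusted p = 3.39e-05), although under median centring the fall did not pass (adjusted p = 0.0616).

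Of 14 AP-1 and small Maf genes tested, 9 rose and 1 fell (7 and 0 under median centring; median 0.66). The small Maf factor Maff rose 3.69-fold, Fosb 2.56-fold, Batf 1.79-fold, Jun 1.73-fold, Mafk 1.64-fold and Fosl2 1.56-fold. Fos was the one that fell, from 8.06, 7.43, 7.56 and 7.72 to 7.23, 6.94, 7.04 and 7.13 (1.52-fold lower, adjusted p = 0.00052; 0.0761 under median centring). Atf3 differed by 0.92 but ranged from 8.57 to 10.79 at rest, and passed only with the replicate number as a block (adjusted p = 9.15e-05 against 0.149). Among 23 other early response genes, 11 rose and 5 fell (8 and 0 under median centring). The stress-signal gene Gadd45b, which acts on the p38 and JNK pathways, rose most, from 10.54, 10.17, 10.52 and 10.90 to 13.48, 13.55, 13.50 and 13.47 (7.82-fold). Phlda1 rose 4.7-fold, Csrnp1 3.45-fold (0.37 and 1.37 on further probes), Arc 2.71-fold and the polo-like kinase gene Plk3 2.39-fold. The falling members were Id3 (-0.83), Ier2 (-0.63), Myc (-0.54), Btg2 (-0.44) and Srf (-0.41). None of these 5 falls passed under median centring. Further probes of Btg2 stood at -0.07 (adjusted p = 0.589) and -0.11 (adjusted p = 0.354).

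Of 14 NF-kappaB subunits and inhibitors, 10 rose and 1 fell (8 and 0 under median centring), with a median of 0.69. The inhibitor gene Nfkbia, itself a target of the pathway, went from 11.78, 11.81, 11.76 and 12.39 to 13.71, 13.52, 13.54 and 13.73, a 3.23-fold rise (adjusted p = 2.04e-08). The groups did not overlap, and resting replicate 4 was the highest of its group. The nuclear IkappaB proteins Bcl3 and Nfkbid rose 2.97-fold and 2.77-fold, and the subunits Relb, Nfkb1 and Nfkb2 2.91-fold, 2.27-fold and 1.83-fold. The kinase gene Ikbkb, which activates the pathway, fell by 0.43, a call lost under median centring (adjusted p = 0.471). Among 17 regulators of NF-kappaB signalling and mRNA decay, 9 rose and 4 fell (5 and 0 under median centring). The A20-binding inhibitor gene Tnip3 rose 4.28-fold, the RNase gene Zc3h12c 2.55-fold, Traf1 2.41-fold and Tnfaip3, the gene of A20, 2.14-fold.

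Among inhibitors of MAP kinase signalling, 8 of 14 phosphatase and Sprouty genes rose and 4 fell (7 and 1 under median centring; median 0.45). Dusp2, a nuclear phosphatase of ERK and p38, read 10.68, 10.08, 10.36 and 10.60 at rest and 12.41, 12.33, 12.55 and 12.25 after antigen (3.88-fold higher). Spry2 rose 3.38-fold, Dusp10, which acts on p38 and JNK, 2.55-fold, Dusp14 2.21-fold and Spry1 1.77-fold. Further probes of Spry2 and Dusp14 stood at 0.21 (adjusted p = 0.0275) and 0.06 (adjusted p = 0.903). Lower values were found for Spred2 (-0.64), Dusp7 (-0.60), Spred1 (-0.51) and Dusp6 (-0.34), of which Spred2 alone passed under median centring. In the calcineurin and NFAT list 4 rose and 4 fell of 14 (1 and 0 under median centring), with the calcium channel subunit gene Orai1 highest (2.05-fold) and the calcineurin inhibitor gene Cabin1 lowest (-0.67, not under median centring, and with a further probe that did not pass, adjusted p = 0.969). Of 16 SOCS genes and STAT5 targets, 6 rose and 4 fell, none by 2-fold (1 and 1 under median centring). Cish rose by 0.60, while the repressor gene Gfi1 fell by 0.76 and Socs1 by 0.52, the last not under median centring.

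The receptor genes themselves behaved differently from one another. Fcer1a, the alpha chain that binds IgE, read 15.94, 16.10, 15.57 and 16.09 at rest and 15.96, 16.42, 16.05 and 16.24 after antigen. The groups overlapped and the difference of 0.24 ± 0.15 did not pass (adjusted p = 0.215). Ms4a2, the beta chain, fell from 13.31, 13.23, 13.31 and 13.20 to 12.75, 12.67, 12.58 and 12.60 without overlap (-0.62 ± 0.06, adjusted p = 3.28e-07). Fcer1g, the gamma chain, had outlier spots on 3 arrays that were left out. Its remaining values were 14.93 and 14.85 at rest (n = 2) and 15.07, 15.10 and 14.97 after antigen (n = 3), and the difference of 0.16 did not pass (adjusted p = 0.132; 0.0175 with Agilent's processed signal). Kit, the receptor for stem cell factor, fell from 15.21, 15.38, 15.16 and 15.28 to 14.23, 14.33, 14.48 and 14.38, a difference of -0.90 ± 0.08 (adjusted p = 8.66e-08). Under median centring neither the fall of Kit (adjusted p = 0.0697) nor that of Ms4a2 (adjusted p = 0.347) passed. Havcr2, the gene of TIM-3, rose from 13.92, 13.96, 14.21 and 14.06 to 15.14, 15.07, 15.07 and 15.18, a difference of 1.08 ± 0.06 (2.11-fold, adjusted p = 7.6e-10), and a further probe of the gene rose by 1.83.

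Within the signalling machinery below the IgE receptor, 7 of 38 genes rose and 14 fell, with a median of -0.09 that turned to 0.07 under median centring, where 3 rose and 1 fell. These shares, 18.4% and 36.8%, lie near those of all genes (16.6% and 29.7%). The kinase gene Fyn went from 8.50, 8.26, 8.64 and 8.34 to 9.67, 9.76, 9.83 and 9.72 (2.48-fold higher, adjusted p = 4.98e-10). Csk, the kinase that holds Src-family members inactive, moved the other way, from 11.44, 11.83, 11.46 and 11.64 to 10.65, 10.56, 10.56 and 10.64 (1.98-fold lower, adjusted p = 2.86e-08). Pik3r5, a regulatory subunit of the G-protein-coupled PI3 kinase gamma, rose 1.95-fold. Inpp5d, the inositol phosphatase SHIP1 that restrains mast cell degranulation, fell 1.67-fold and the exchange factor gene Vav1 1.63-fold, both not under median centring. Clnk, an adaptor of the SLP-76 family that was not in this list but among the 12 largest falls, went from 12.99, 12.70, 12.99 and 12.48 to 11.03, 11.04, 10.84 and 11.09. Its groups did not overlap, and it was 3.47-fold lower (adjusted p = 2.61e-10). Lyn, the kinase that starts the cascade, stood at a difference of 0.08 (adjusted p = 0.359) and passed, at 0.17, with slide as a block (adjusted p = 0.00796) and with Agilent's processed signal (0.0256).

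**Figure D3:**
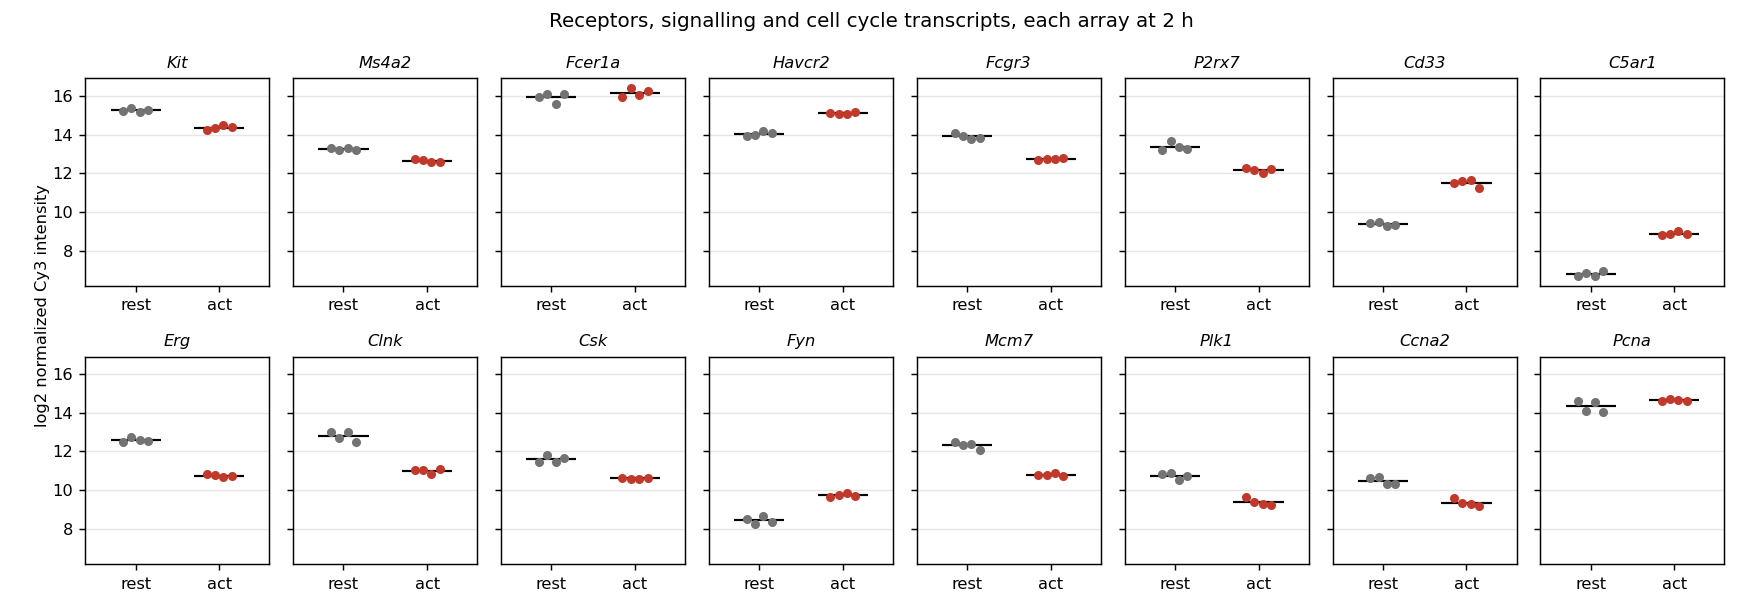
Each panel is one gene and each point one array at 2 h, with log2 normalized Cy3 intensity on the shared vertical axis and resting (rest) and activated (act) cells side by side. Bars are means of 4 arrays. Kit, Ms4a2, Csk and Clnk are lower on every activated array, Cd33, C5ar1 and Fyn are higher, and the groups of Fcer1a overlap.

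Other receptors of mast cells changed in both directions, 9 up and 14 down of 33 tested (5 and 4 under median centring). Among the 31 measured in both groups, 8 rose and 13 fell. The sialic-acid-binding inhibitory receptor Cd33 read 9.44, 9.46, 9.28 and 9.31 at rest and 11.48, 11.58, 11.67 and 11.24 after antigen (4.35-fold higher, adjusted p = 2.39e-11). C5ar1, the signalling receptor for C5a, rose 4.26-fold, from 6.69, 6.84, 6.67 and 6.92 to 8.81, 8.84, 8.99 and 8.85, so that both C5a receptor genes were raised. The ATP-gated channel P2rx7 fell 2.3-fold, from 13.18, 13.68, 13.34 and 13.27 to 12.25, 12.15, 12.02 and 12.22. Both IgG receptor genes of the list were lower. Fcgr3, the activating low-affinity receptor, went from 14.10, 13.92, 13.78 and 13.84 to 12.70, 12.75, 12.75 and 12.77 (2.25-fold lower, adjusted p = 8.43e-10), and Fcgr2b, the inhibitory one, was 1.8-fold lower, not under median centring (adjusted p = 0.0592). The interleukin 4 receptor chain Il4ra fell 1.95-fold, also not under median centring (adjusted p = 0.136). Probes of Il1rl1, the gene of ST2, disagreed: the brightest stood at -0.02 (adjusted p = 0.902), while 2 further probes rose by 0.93 and 1.22, and the mean over probes rose by 0.71 (adjusted p = 1.66e-08).

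Surface receptors of activation and inhibition included 13 of 25 that rose and 2 that fell (8 and 0 under median centring), with 1 tested through the activated arrays only. After Crtam came Pdcd1lg2, a ligand of the inhibitory receptor PD-1 (2.32-fold), the costimulatory receptor genes Tnfrsf9 (4-1BB, 2.21-fold, with a further probe at -0.07) and Tnfrsf4 (OX40, 1.95-fold), and Havcr2. The early lymphocyte activation marker Cd69 fell instead, by 0.69 (adjusted p = 1.3e-06), and the TIM-3 ligand gene Lgals9 by 0.46. Neither fall passed under median centring. In the list of RGS and sphingosine phosphate genes, Rgs16 and Sphk1 rose by their brightest probes and 8 of 15 fell. Rgs3 was not called by its brightest probe (0.14), but its 4 further probes differed by 0.37 to 1.59, the mean over probes rose by 0.61 (adjusted p = 2.72e-07), and with slide as a block the brightest probe passed at 0.19 (adjusted p = 0.00257). Members that fell included Rgs14 (-0.98), Rgs18 (-0.80), Rgs19 (-0.76) and Rgs13 (-0.58), of which Rgs14 alone passed under median centring.

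Among genes of the preformed and lipid mediators, single enzymes changed most. Of 12 eicosanoid synthesis genes, only Ptgs2 rose and 7 fell (none of the falls under median centring; median -0.25, and -0.01 there). Ptgs2, the inducible cyclooxygenase, read 7.64, 7.01, 6.99 and 7.31 at rest and 10.14, 9.69, 10.00 and 9.84 after antigen, 6.41-fold higher (adjusted p = 2.48e-10). The falling enzymes included Pla2g7 (-0.49), the phospholipase gene Pla2g4a that frees arachidonic acid (-0.45) and Alox5ap (-0.36), the 5-lipoxygenase activating protein. Hdc, which makes histamine from histidine, rose 2.85-fold, from 13.68, 12.89, 13.48 and 12.89 to 14.79, 14.71, 14.78 and 14.71 (adjusted p = 1.38e-07). In the same list Ndst2, the heparin sulfotransferase that granule storage needs, fell from 13.90, 13.75, 13.78 and 13.58 to 12.55, 12.70, 12.72 and 12.59 (2.16-fold, adjusted p = 1.28e-09). Of 16 granule protease genes, 2 rose and 1 fell, all by less than 2-fold. Ctsc, which activates granule proteases, rose by 0.34, and Gzmb fell by 0.45, neither of them under median centring. Cpa3 stood at -0.02, Cma1 at 0.06 and Mcpt4 at -0.08, none of which passed. With the replicate number as a block 7 protease genes rose. Exocytosis and lysosome genes gave 5 rises and 10 falls of 27 (1 and 0 under median centring). These shares, 18.5% and 37%, are near those of all genes. Stx11, a syntaxin of cytotoxic granules, rose by 0.73, and its partner in granule priming Unc13d (Munc13-4) fell by 0.87, the latter not under median centring. Actin and integrin genes gave 8 rises and 7 falls of 29 (5 and 0 under median centring). The integrin genes Itgav and Itga5 rose 2.02-fold and 1.74-fold, and the myosin gene Myo1f fell by 0.56, not under median centring.

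Falls among regulators of mast cell and blood cell identity were led by Erg. This ETS factor of haematopoietic stem cells read 12.50, 12.75, 12.60 and 12.54 at rest and 10.84, 10.79, 10.67 and 10.71 after antigen. Its groups did not overlap and it was 3.6-fold lower (adjusted p = 1.81e-12), with a further probe at -0.47 that was not above background after antigen. Over the 25 lineage factors tested, 9 rose and 9 fell (4 and 1 under median centring). The repressor gene Gfi1b rose 2.89-fold, whereas Hhex (-0.84), Nfe2 (-0.78), Ikzf2 (-0.73) and Meis1 (-0.61) fell, none of these 4 under median centring. Further probes of Ikzf2 ran from -0.43 to 0, and the one at 0 did not pass (adjusted p = 0.976). Mitf, the factor that mast cells depend on, stood at -0.02 (adjusted p = 0.936).

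The remaining large falls concern less studied genes. Depdc1b, which is linked to cell division, fell from 10.82, 11.07, 10.78 and 10.75 to 8.77, 8.85, 8.68 and 8.66 (4.33-fold, adjusted p = 2.55e-12), and the meiosis gene Mns1 4.2-fold. Pik3ip1, an inhibitor of PI3 kinase, read 11.71, 11.80, 11.64 and 11.56 at rest and 9.84, 9.92, 9.95 and 9.95 after antigen, 3.39-fold lower. Shisa2, the F-box gene Fbxo31, Rwdd3, Map11, the transporter gene Slc45a3 and the lipid transfer gene Osbpl5 fell between 3.2-fold and 3.47-fold. All of these had separate groups, with an adjusted p of 1.29e-09 or less.

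Survival genes moved in both directions. In the Bcl2 family and death list, 7 of 23 rose and 11 fell (6 and 1 under median centring), with a median of -0.10 that turned to 0.04 there. Among the 22 measured in both groups, 7 rose and 10 fell. The death receptor gene Fas rose 4.82-fold, from 9.04, 8.07, 8.53 and 8.51 to 10.76, 10.84, 10.82 and 10.80 (adjusted p = 2.73e-09; 0.57 on a further probe with no resting array above background), and the BH3-only gene Pmaip1 (Noxa) 2.16-fold. Other BH3-only genes diverged: Bcl2l11 (Bim) rose by 0.69, and by 1.78 and 2.07 on further probes, while Bmf and Bid fell by 0.96 and 0.79, Bid not under median centring. A further probe of Bmf stood at -0.08 (adjusted p = 0.583). Trp53inp1, a p53 target that promotes cell death, fell by 0.87, also not under median centring. Bcl2a1b, a survival gene with near-identical copies that the probe may not separate, differed by 1.18 without passing (adjusted p = 0.0748). It passed with the replicate number as a block (adjusted p = 1.82e-05), without resting replicate 1 (0.0404) and without activated replicate 2 (0.0378).

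Of 26 replication and mitosis genes, 25 fell and 1 rose (15 and 0 under median centring), 8 of them by at least 2-fold, with a median of -0.91 beside -0.05 for all genes. Mcm7, a subunit of the replicative helicase, read 12.48, 12.33, 12.38 and 12.08 at rest and 10.77, 10.80, 10.88 and 10.73 after antigen (2.88-fold lower, adjusted p = 5.55e-11). The mitotic kinase gene Plk1 went from 10.83, 10.89, 10.54 and 10.71 to 9.65, 9.38, 9.26 and 9.25 (2.57-fold lower) and the cyclin gene Ccna2 from 10.64, 10.68, 10.31 and 10.34 to 9.58, 9.36, 9.28 and 9.17 (2.21-fold lower). Mki67, the proliferation marker, fell 2.29-fold and the helicase subunit gene Mcm5 2.2-fold. Pcna, the polymerase clamp, was the exception, with 14.61, 14.12, 14.56 and 14.03 at rest and 14.60, 14.70, 14.65 and 14.61 after antigen, 0.31 ± 0.10 higher (adjusted p = 0.0212). Its call was lost under median centring (adjusted p = 0.271), in a fit of these 8 arrays alone (0.0812), with slide as a block (0.112), and without resting replicate 2 (0.075), resting replicate 4 (0.0765) or activated replicate 2 (0.0527). Among 21 G1 cyclins, E2f factors and CDK inhibitors, 13 fell and 6 rose, against 4 and 4 under median centring. The pocket protein genes Rbl1 and Rbl2 fell 2.19-fold and 2.03-fold and E2f1 1.92-fold. CDK inhibitors moved apart: Cdkn2b rose by 0.69 and Cdkn2d fell by 0.81, the latter not under median centring.

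Signals of the TGF-beta, activin and Notch families included Fst, one of the 12 largest rises. Of 24 tested, 1 passed the filter through the activated arrays only and 1 through the resting arrays only. There were 13 rises, 8 of them at least 2-fold, and 5 falls (11 and 2 under median centring). Inhba, which codes for the activin A subunit, rose 7.22-fold together with its antagonist Fst. Resting Inhba read 8.21, 7.08, 7.65 and 8.57, and activated arrays 11.28, 10.03, 10.30 and 11.30, so that arrays of a group varied widely and the groups did not overlap. In both groups replicates 2 and 3 were lower than 1 and 4. The Notch target Hey1 rose 6.38-fold, whereas another Notch target, Hes1, fell by 0.91. The corepressor gene Skil rose 2.49-fold. The urokinase gene Plau fell 2.19-fold (adjusted p = 5.43e-11) and the receptor gene Tgfbr2 by 0.69, Tgfbr2 not under median centring. A further probe of Tgfbr2 stood at -0.15 (adjusted p = 0.103).

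Genes of sterol synthesis mostly rose. 17 of 26 cholesterol and fatty acid genes rose and 3 fell (15 and 0 under median centring), with a median of 0.70. Cyp51, the lanosterol demethylase, went from 9.84, 9.64, 9.77 and 9.51 to 11.06, 11.12, 10.98 and 10.93 (2.51-fold higher, adjusted p = 3.1e-10). The desaturase genes Scd1 and Scd2 rose 2.44-fold and 2.05-fold, squalene synthase, Fdft1, 2.23-fold, and Mvd, an enzyme of the mevalonate pathway, 2.2-fold. Hmgcs1 rose 2.57-fold by its brightest probe, and by 1.10 and 0.31 on further probes (adjusted p = 1.02e-08 and 0.00155). The mean over Hmgcs1 probes, 0.92, did not pass (adjusted p = 0.137). Abcg1, which exports cholesterol, fell by 0.65, not under median centring (adjusted p = 0.135). Probes of the regulator gene Srebf2 disagreed. Its brightest probe stood at 0.08 (adjusted p = 0.255, and 0.0213 with Agilent's processed signal). Its 3 further probes rose by 0.32 to 0.64 (adjusted p of 0.00345 or less).

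Glycolysis and hypoxia genes gave 2 rises and 11 falls of 23, with a median of -0.17. Under median centring they were 2 and 1, with a median of 0.04. Among the 22 measured in both groups, 1 rose and 11 fell. Pfkfb3, which makes the strongest activator of glycolytic flux, rose 3.43-fold (0.38 and 0.74 on further probes), and the mTOR inhibitor gene Ddit4 fell 2.06-fold (adjusted p = 1.47e-09). Among 29 unfolded protein response and ATF4 genes, 12 rose and 2 fell (4 and 0 under median centring), led by Chac1 (3.36-fold), which degrades glutathione, and the cystine transporter gene Slc7a11 (2.31-fold). Oxidative and heat stress genes gave 6 rises and 4 falls of 24 (5 and 0 under median centring). Srxn1, Hspa1a and Hmox1 rose 2.58-fold, 2.43-fold and 2.4-fold, and Txnip fell by 0.66, not under median centring. A further probe of Hspa1a stood at 0.37 (adjusted p = 0.214), while others rose by 1.12 and 1.24. For ribosomal protein genes, 0 of 24 rose and 1 fell, with 0 and 1 under the replicate block and differences between -0.26 and 0.18. The one that passed was Rps6 (-0.26, adjusted p = 0.00263), whose value turned to 0.01 under median centring and did not pass with Agilent's processed signal (-0.07, adjusted p = 0.498). Ribosome biogenesis genes gave 7 rises and 7 falls of 28, none by 2-fold and none under median centring.

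**Figure D4:**
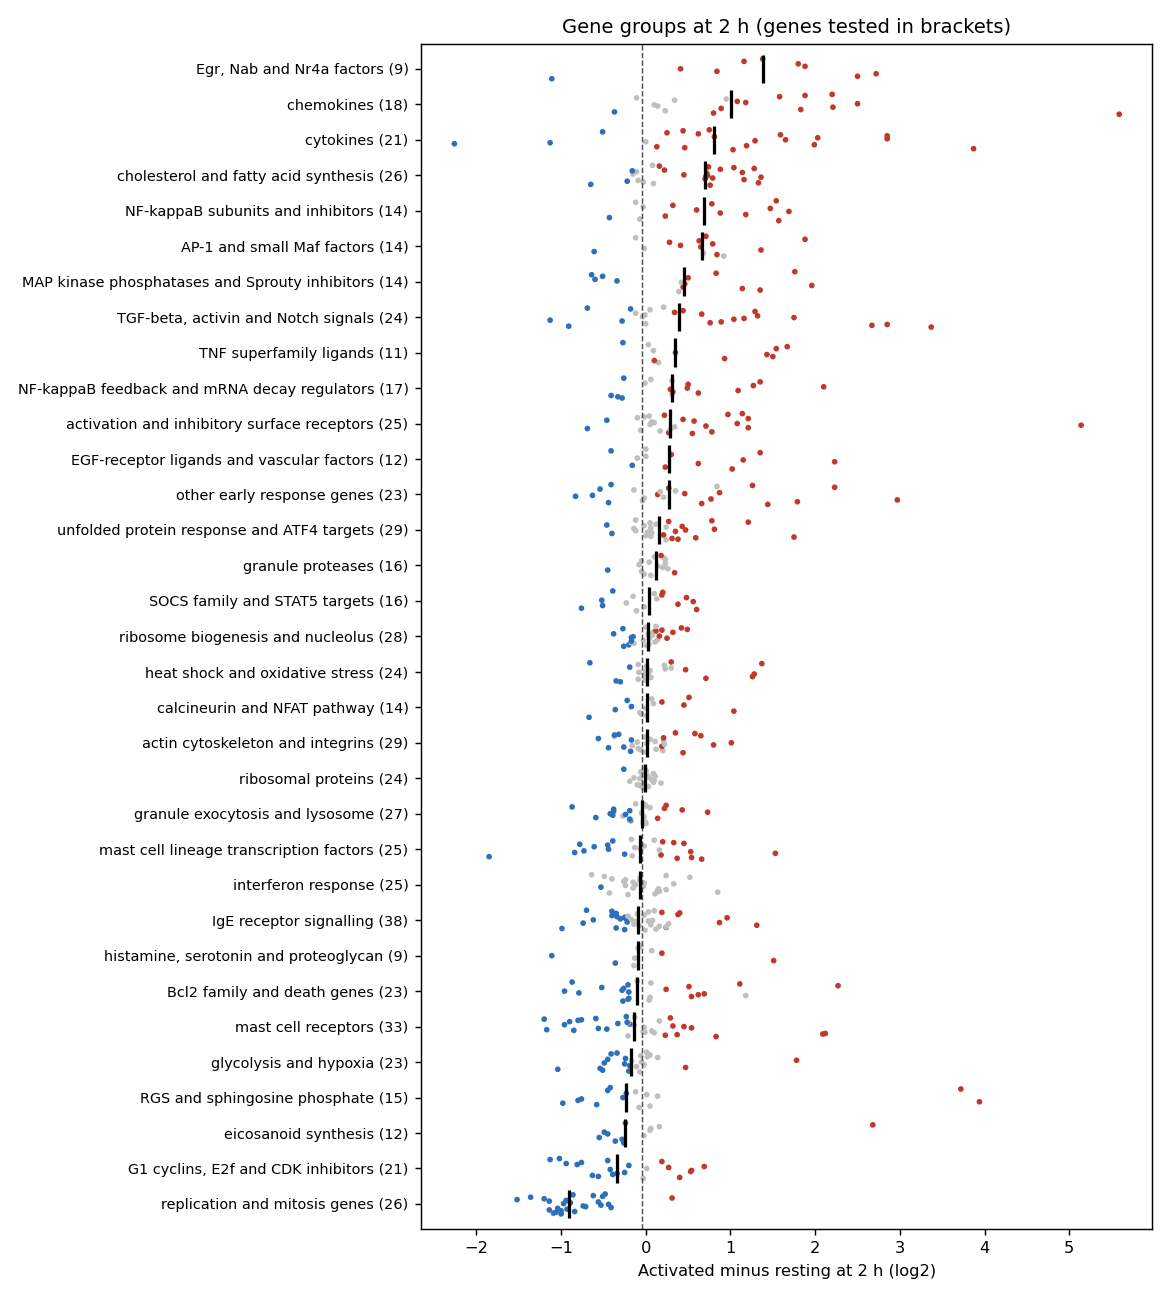
Each row is a gene list, with the number of genes tested in brackets, and each point a gene at its difference between activated and resting cells at 2 h (log2, means of 4 arrays each). Red points rose, blue points fell and grey points did not pass an adjusted p of 0.05, the black bar is the list's median and the dashed line the median of all genes at -0.05. Egr, Nab and Nr4a factors, chemokines and cytokines lie furthest to the right and replication and mitosis genes furthest to the left. The place of the cytokines depends on genes that passed the filter through the activated arrays only. Over genes measured in both groups their median is 0.60, below sterol and fatty acid genes (0.70), NF-kappaB subunits and inhibitors (0.69), AP-1 and small Maf factors (0.66) and TNF superfamily ligands (0.64).

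Arrays of one group differed in genes of other cells. All 13 macrophage and dendritic cell markers were well above background on some array at 2 h, and their summed linear intensity ran from 31590 to 79180 in the resting group and from 29510 to 70510 in the activated group. These ranges overlap, and 0 of 13 tested rose and 0 fell in the fit of group means. The level followed the replicate number in both groups. Lyz2, lysozyme of macrophages, read 15.57, 14.31, 15.05 and 15.69 at rest and 15.22, 14.10, 14.89 and 15.42 after antigen, lowest in replicate 2 both times. Interferon response genes did the same. With group means 0 of 25 rose and 1 fell, but with the replicate number as a block 5 rose and 8 fell. Rsad2, an antiviral gene, ran from 9.19 to 11.55 at rest and from 9.56 to 12.03 after antigen. Each activated array was higher than the resting array of the same number (difference 0.52, adjusted p = 0.567, and 5.71e-05 with the block). Gbp3 differed by 0.85 in the same way (adjusted p = 0.0739, 4.12e-06 with the block and 0.0162 without resting replicate 1), while Gbp2 differed by -0.43 (adjusted p = 0.157, and 6.31e-05 with the block). Irf1 was the member that fell with group means (-0.53, adjusted p = 0.00947), not under median centring. The macrophage gene Cd14 differed by 0.80 (adjusted p = 0.192, and 5.97e-05 with the block). With the block, 1 of the 13 macrophage and dendritic cell markers rose and 1 fell. Inhba, Cxcl3 and Ccl24 were likewise lowest in replicate 2 of both groups. The part of such cells in the results for Cxcl10, Cxcl2, Cxcl3, Ccl24, Inhba, Atf3 and Il1b was not tested.

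Markers of further cell types changed in both directions. Of 3 eosinophil markers tested, 1 rose and 1 fell, and only the gene that rose was measured in both groups. Of 7 lymphocyte markers 2 rose and 0 fell, and 1 rose among the 5 measured in both groups. Of 7 basophil markers 2 rose and 0 fell, against 0 and 0 under median centring. Siglecf, a sialic-acid-binding receptor best known on eosinophils, went from 7.38, 7.19, 7.43 and 7.52 to 10.04, 10.04, 10.03 and 10.15 (6.42-fold, adjusted p = 6.83e-12), while the eosinophil granule genes Prg3, Ear1 and Ear6 were not well above background on any array at 2 h. The summed eosinophil markers, at 599.9 to 749.2 at rest and 1480 to 1565 after antigen, rose with this gene. Nkg7, a granule protein of cytotoxic lymphocytes, rose 2.93-fold, with the T cell gene Cd3e at 0.03, which did not pass. Lymphocyte markers summed to between 1167 and 1252 at rest and between 1467 and 1886 after antigen. This sum includes Nkg7, and the median difference of the 7 markers tested was 0.03. Of 9 erythroid and megakaryocyte markers tested, 1 rose and 3 fell (1 and 0 under median centring). Among the 8 measured in both groups, 1 rose and 2 fell. The erythropoietin receptor gene Epor was the rise (2.83-fold), and the lowest member of the list stood at -0.52. Neutrophil markers gave 0 rises and 0 falls of 5 tested with group means, and 1 of each under the replicate block; Elane, Camp, Ngp, Mmp9 and Retnlg were not well above background on any array at 2 h. Of the 12 mast cell markers all were well above background, and they summed to between 408800 and 483600 at rest and between 444500 and 494300 after antigen.

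Set against the response of control cells at 16 h, the 2 h response was wider among genes measured at 2 h. The filter used the 2 h arrays alone, so genes measured only at 16 h were not counted. At 16 h, 2092 genes changed (13.3%), 892 upward (5.65%) and 1200 downward (7.6%). The difference between the responses passed for 5701 genes (36.1%; 703 genes under median centring), with 3521 higher at 16 h (22.3%) and 2180 lower (13.8%). That test uses the same 2 h arrays that chose the large rises and falls, so the counts that follow are descriptions. Of the 371 large rises, 348 were smaller at 16 h by the test of the difference, and 96 were still above resting cells there. Of the 168 large falls, 165 were higher at 16 h by that test and 69 were still below resting cells.

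Crtam showed the largest difference between times, -4.94 (adjusted p = 2.71e-13), with a 16 h response of 0.20. For Ccl1 the response at 16 h was 0.88, lower than at 2 h by 4.70 (adjusted p = 5.59e-12), and for Csf2 it was 0.17. Rgs16 stood at 0.26 and C5ar2 at 0.32 at 16 h. Egr3 went below the resting level by 16 h, at -0.81 (adjusted p = 0.000319), a difference of -3.53 from 2 h. In the other direction Il15 came back to 0.08 and Depdc1b to 0.07. The formin-related gene Fhdc1 reversed, from -1.27 at 2 h to 1.25 at 16 h, as did the potassium channel gene Kcnd2 (-0.60 to 1.78), the gluconeogenic gene Fbp1 (-0.55 to 1.51) and Echdc3 (-1.25 to 0.72). Under median centring the 2 h fall of Fbp1 did not pass (adjusted p = 0.141). A few rises lasted: 14 genes were at least 2-fold higher at both times. Penk, which codes for enkephalin peptides, stood at 2.58 at 2 h (0.83 on a further probe) and 2.62 at 16 h, and Tnfrsf9 at 1.14 and 2.67, the latter higher at 16 h (adjusted p = 1.02e-06). Il1b, Hdc, Pdcd1lg2 and Sphk1 were also among the 14. For Sphk1 the rise was smaller at 16 h, 1.03 against 3.72 at 2 h (difference -2.69, adjusted p = 4.48e-05). At 16 h 25 of 26 replication and mitosis genes were lower (median -0.55), and these were the 25 that were lower at 2 h. Of the sterol and fatty acid genes 16 of 26 were higher at 16 h (median 0.33), 12 of them also higher at 2 h.

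**Figure D5:**
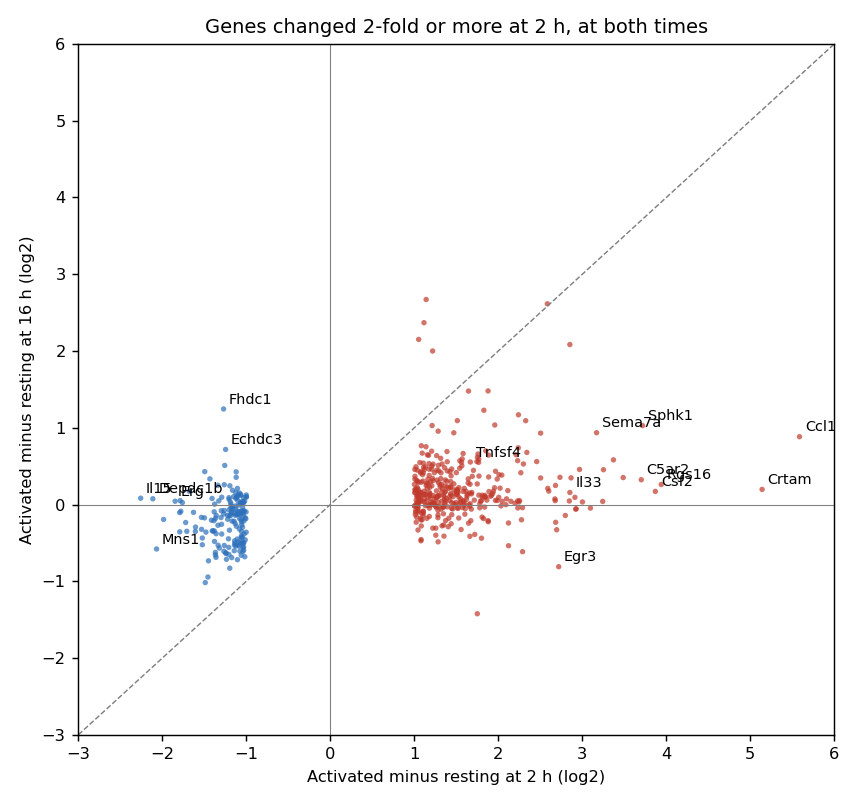
Each point is a gene that changed at least 2-fold at 2 h, 371 upward in red and 168 downward in blue. Axes give activated minus resting at 2 h (horizontal) and at 16 h (vertical), both log2 differences of means of 4 arrays, and the dashed line marks equal responses. Most points lie near 0 on the vertical axis, and Crtam, Ccl1 and Csf2 are farthest from the dashed line.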

How the data were processed

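Cy3 of 8 two-colour mouse arrays was compared, 4 per group. The deposited mean spot intensities and median local background intensities are on a linear scale, with a processed intensity beside them that served as an alternative. Their software was Feature Extraction 9.1.3.1 per the file headers, and the submitters' processing notes give version 9. The dye is the same in both groups.

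Here limma 3.58.1 in R 4.3.3 corrected the background by normexp with offset 50, applied loess within arrays and Aquantile between all 16 arrays, with weight 0 for controls and outlier spots, and Cy3 was taken from the result. Repeated spots were averaged. A probe was kept if well above background on at least 3 of 4 arrays of either 2 h group (23479 of 41174). The brightest probe stood for a gene. Further kept probes are given where they lay far from it or did not share the change of a called gene. Names came from RefSeq accessions (22951 probes), current symbols (6659) or earlier ones (3109), while 8455 probes are called as in the files. Outlier spots removed 94 of 126304 gene values. The model fitted 4 group means over 16 arrays (lmFit and eBayes), with two-sided p-values adjusted over all genes by Benjamini-Hochberg at 0.05. In a simulation of the 2 h comparison (15622 genes, 200 changed), 98.3% of genes changed at least 2-fold and 81.2% of those changed by 0.5 (log2) were recovered, with 5.18% of calls false. It drew independent noise for each gene and array, with no link by replicate or slide and no effect of scaling. Its share of false calls is therefore no error rate for these data.

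Replicate numbers were checked as pairs: deviations from the group means correlated at 0.36, 0.493, 0.186 and 0.295 between same-numbered arrays. Between arrays of different numbers they ran from -0.45 to 0.212. Resting 2 with activated 3 (0.212) and resting 4 with activated 1 (0.196) exceeded the pair of number 3. Each resting array still correlated best with the activated array of its number. The numbers may therefore pair the samples, but the check does not settle it, and the labels give only the number. The main fit compared unpaired group means, with the replicate block as an alternative.

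The comparison and the gene lists were chosen with earlier results of these data known. Genes named are the 12 largest rises and falls measured in both groups, the 8 largest bounds each way, up to 6 changed members per list and all of a list with at most 5, the 6 largest differences between times each way, and the receptor genes. Named outside this rule, with their values known, were Abcg1, Atf3, Bcl2a1b, Btg2, Ccl2, Cd14, Cd3e, Cd69, Cma1, Cpa3, Cxcl10, Cxcl2, Dusp6, Dusp7, Egr1, Fcgr2b, Fos, Gbp2, Gbp3, Hes1, Id3, Ier2, Ikbkb, Il16, Il1b, Il1rl1, Il4, Il5, Il6, Lgals9, Lyn, Lyz2, Mcpt4, Meis1, Mitf, Myc, Pcna, Penk, Plau, Rgs3, Rsad2, Spred1, Srebf2, Srf, Tgfbr2, Tnfsf9 and the genes of the closing observations. Some genes that the rule selects are not reported here. Alternatives covered normalization, background, filters, probes, arrays, slides, the replicate block and each array left out.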

Additional observations from a re-analysis of the deposited data

Results flagged for a closer look

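Among 440 groups of 4 arrays for the 222 genes named in the report, 24 had one array far from the others, and chance flags about 1 in 20 groups. The flags fell on 7 of the 8 arrays, at most 5 on any of them. Values are log2 normalized Cy3 intensities of the array that stood apart, against the range of the other arrays. On resting arrays the high ones were Hbegf (replicate 3, 7.70 against 7.44 to 7.48), Mgat3 (replicate 4, 7.21 against 6.41 to 6.49), Nfkbia (replicate 4, 12.39 against 11.76 to 11.81), Osm (replicate 2, 10.32 against 10.07 to 10.11), Phlda2 (replicate 1, 6.83 against 6.59 to 6.63), Sema7a (replicate 4, 8.22 against 7.75 to 7.81), Spry1 (replicate 3, 7.56 against 6.66 to 6.76) and Tnfsf4 (replicate 3, 10.90 against 10.67 to 10.70). Low resting values were Csf2 (replicate 3, 6.21 against 6.27 to 6.28), Ikzf2 (replicate 1, 11.64 against 11.82 to 11.86), Osbpl5 (replicate 1, 13.62 against 13.80 to 13.84) and Xcl1 (replicate 4, 6.16 against 6.30 to 6.32). After antigen, high values were Cma1 (replicate 3, 16.21 against 16.04 to 16.07), Il33 (replicate 1, 9.49 against 9.41 to 9.42), Lyn (replicate 1, 13.19 against 13.07 to 13.08), Myo1f (replicate 4, 12.47 against 12.29 to 12.32), Nfkb1 (replicate 3, 12.70 against 12.62 to 12.63), Nxpe5 (replicate 1, 6.41 against 6.15 to 6.17), Siglecf (replicate 4, 10.15 against 10.03 to 10.04) and Zc3h12c (replicate 1, 9.64 against 9.46 to 9.47). Low activated values were Egr3 (replicate 4, 10.05 against 10.27 to 10.29), Mafk (replicate 1, 11.26 against 11.53 to 11.56), Ptpn22 (replicate 4, 12.26 against 12.46 to 12.49) and Rbl1 (replicate 4, 8.45 against 8.60 to 8.61).

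The response to antigen differed between 16 h and 2 h (limma, adjusted p under 0.05 for the difference) for 30 genes among the largest changes, given as the response at 16 h minus that at 2 h. The largest negative differences were Crtam (-4.94), Ccl1 (-4.70), Csf2 (-3.70), Rgs16 (-3.68), Egr3 (-3.53) and C5ar2 (-3.38). Further genes whose rise was smaller at 16 h were Ptpn22 (-3.20), Marcksl1 (-3.14), Olr1 (-3.14), Mgat3 (-2.97), Gpd1 (-2.80), Fst (-2.79), Sphk1 (-2.69) and Sema7a (-2.23). Genes that fell at 2 h and stood higher at 16 h were led by Fhdc1 (2.52), Kcnd2 (2.38), Il15 (2.34), Depdc1b (2.19), Fbp1 (2.05) and Echdc3 (1.96). The others were Erg (1.89), Osbpl5 (1.85), Fbxo31 (1.84), Pik3ip1 (1.79), Clnk (1.69), Rwdd3 (1.69), Map11 (1.49), Mns1 (1.49), Shisa2 (1.44) and Slc45a3 (1.36). The 2 h arrays that chose these genes also enter the difference, so their sizes are descriptions.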

How the results depend on the processing

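Median centring and Agilent's processed signal were the settings that moved counts most. Median centring without loess or quantile steps left 1813 genes changed, against 7309, 79 large falls, against 168, and 703 genes that differed between times, against 5701. Agilent's processed signal gave 656 large rises and 471 large falls. The other alternatives kept every one of these 4 counts within 1.5 times, among them quantile normalization of Cy3 alone, the normexp offset, both filters on dim probes, the mean of probes and the slide as a block. Leaving out single arrays gave between 6751 and 7247 changed genes, 362 to 384 large rises, 168 to 201 large falls and 5282 to 5882 genes that differed between times.

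The replicate block gave 7854 changed genes, 374 large rises, 168 large falls and 6316 genes that differed between times. It brought Atf3, Bcl2a1b, Cd14, Cxcl10, Gbp2, Gbp3 and Rsad2 past the threshold, as given in the report, and changed no other call among the genes named there. Of 278 genes looked at, 177 kept their direction and side of the threshold under all of up to 19 alternatives, and 85 lost their call under median centring. Signs turned under median centring for Gata2 (0.04), Itgb3 (0.05) and Rps6 (0.01), and with the mean of probes for Itgb3 (0.04), Polr1a (0.01) and Il1rl1 (0.71). The cause was not tested. Signal over background limits dim genes: the offset of 50 stands beside a median Cy3 intensity of 61.25 to 78.82, so their changes are understated.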

Other observations

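Beyond the 12 largest rises and the lists, several regulators rose strongly; these genes were chosen after their values were seen. Trib1, a pseudokinase that steers protein degradation, rose by 2.93 ± 0.11 (SE; adjusted p = 3.90e-12). Errfi1, a feedback inhibitor of the EGF receptor, rose by 2.92 ± 0.15 (adjusted p = 3.03e-10), beside the rise of the receptor's ligand Hbegf. Ccno, an atypical cyclin, rose by 2.87 and Nfil3, a basic leucine zipper repressor, by 2.60. The small GTPase gene Rrad rose by 2.70, the adhesion gene Igsf3 by 2.73 and the sugar phosphate transporter gene Slc37a2 by 2.80. Rtn4rl1 rose by 2.59, Vasn, whose product binds TGF-beta, by 2.46 and the water and glycerol channel gene Aqp3 by 2.34. Activated and resting values of each of these genes did not overlap, and the rise of each was smaller at 16 h by the test of the difference.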
